A study of Mus musculus with 12 samples.

Results

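Polycomb repressive complex 2 (PRC2) and its cofactor Jarid2 were followed on 12 microarrays of mouse fibroblasts in early reprogramming. The members were 9 genes, Jarid2, Ezh1, Ezh2, Eed, Suz12, Mtf2, Phf1, Phf19 and Aebp2, of 22180 genes with a probe set of their own on the array. Each had 1 probe set that named it alone and 0 that named it beside other genes, so no choice between probe sets was needed. All 9 passed the low-value filter on all 12 arrays.

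The cells were embryonic fibroblasts from E13.5 mouse embryos with the strain names C57Bl/6 and 129X1/SvJ. All carried the genotype Col1a1::tetOP-OKSM ; R26-M2rtTA, in which doxycycline switches on Oct4, Klf4, Sox2 and c-Myc (OKSM), and all received doxycycline in serum and LIF. A retroviral hairpin targeted Chaf1a, the large subunit of the histone chaperone CAF-1, or Renilla luciferase as the control, and RNA was taken at day 3 or day 6, with 3 arrays in each of the 4 groups. Uninduced fibroblasts and finished stem cells were not analysed here, so the time comparison runs from day 3 to day 6 of induction only. Whether the 3 replicates of a group were separate cultures or embryos is not in the labels, and a p-value measures the spread between these samples, which may be technical. In such bulk RNA, more cells that express a gene and more RNA per cell cannot be told apart.

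PRC2 trimethylates histone H3 at lysine K27, a mark of silent developmental genes. Ezh1 or Ezh2 is the catalytic subunit, and Eed and Suz12 complete the core. The core joins either a Polycomb-like protein (Phf1, Mtf2 or Phf19), which binds chromatin and DNA, or Jarid2 together with Aebp2, which help recruit and stimulate the enzyme. Embryonic stem cells are known for high Jarid2, and Jarid2 and Ezh2 have known roles in reprogramming to pluripotency. The question behind the design is how lower CAF-1 changes expression early in this process.

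Chaf1a itself did not pass the test. Its log2 fold change was −0.29 (SE 0.09) at day 3 and −0.12 (SE 0.09) at day 6, with limma adjusted p = 0.726 and 0.999. Chaf1b, the middle subunit of CAF-1, stood at −0.43 and −0.20 (adjusted p = 0.697 and 0.999). Median intensities per array ran from 39.5 to 43.3 on the linear scale, and Pearson's r between arrays of a group from 0.991 to 0.995. Of 12 fibroblast markers, 11 were above the low-value cut on all 12 arrays (Col1a1 at a mean log2 intensity of 10.74, Thy1 at 9.74). The mean of the list ran from 9.25 to 9.29 in day 3 controls, 9.19 to 9.32 in day 3 knockdown, 9.25 to 9.65 in day 6 controls and 9.14 to 9.61 with the Chaf1a hairpin at day 6. Over time Pdgfrb rose by 1.11 in controls and 0.91 in knockdown cells (limma adjusted p = 0.00123 and 0.00375). The other 11 fibroblast markers did not pass. Of 8 macrophage and leukocyte markers, 6 were above the cut on all 12 arrays, and Ptprc, at a mean of 4.07, on 1 array. The mean log2 level of that list ran from 5.41 to 5.70 over the day 3 arrays and from 5.10 to 5.26 over the day 6 arrays. Cd68 fell over time by 1.19 in controls and by 1.23 in knockdown cells on the log2 scale (adjusted p = 9.56e-07 and 5.39e-07), and Itgam fell by 0.50 in knockdown cells (adjusted p = 0.00598). Of 5 measured endothelial markers 2 rose over time with either hairpin, beside 6.99% of all genes in controls and 7.46% in knockdown cells. Kdr rose by 1.00 and 1.25 and Cdh5 by 0.40 and 0.51, while the other 3 did not pass. Tek, the brightest at a mean of 9.99, went from 10.05 to 9.89 in controls and from 10.11 to 9.93 in knockdown cells. The median of the endothelial list was −0.0002 in controls and 0.15 in knockdown cells. Some genes of these marker lists thus moved over the same days as Jarid2 and Phf1, and their part in the time changes was not tested. Day 3 knockdown replicate 2 stood apart in the mean of interferon-stimulated genes, a list chosen after the data were seen. Its list score was 1.34 over 8 genes against −0.23 to 0.01 on the other 11 arrays. Not every gene was highest there. Ifit3 at 6.54 and Rsad2 at 5.52 lay below day 6 knockdown replicates 3 (Ifit3 6.60) and 2 (Rsad2 5.55).

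Jarid2 rose between day 3 and day 6, in cells with either hairpin. Log2 intensities were 7.78, 7.71 and 7.76 in day 3 controls and 8.10, 8.21 and 8.21 in day 6 controls, in the order of replicates 1, 2 and 3. With the Chaf1a hairpin they were 7.76, 7.52 and 7.78 at day 3 and 8.65, 8.51 and 8.42 at day 6. The day 3 groups overlapped each other, and above them the day 6 controls and then the day 6 knockdown arrays formed steps with no overlap. The rise was 1.34-fold in control cells, or 0.42 on the log2 scale (SE 0.08, limma adjusted p = 0.00400). It was 1.79-fold in knockdown cells, or 0.84 on the log2 scale (SE 0.08, limma adjusted p = 3.27e-05).

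Jarid2 was the member with the widest range over the 12 arrays, 1.13 log2 units. Its rise in knockdown cells had the 104th smallest p among 17860 genes. The rise in controls kept its size, 0.38 without replicate 2 and 0.41 without replicate 3 of every group, but no longer passed there (adjusted p = 0.0541 and 0.0664), in fits with 2 arrays a group. The rise in knockdown cells passed in every alternative run. Without day 3 knockdown replicate 2, the lowest Jarid2 array, it was 0.76.

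**Figure D1:**
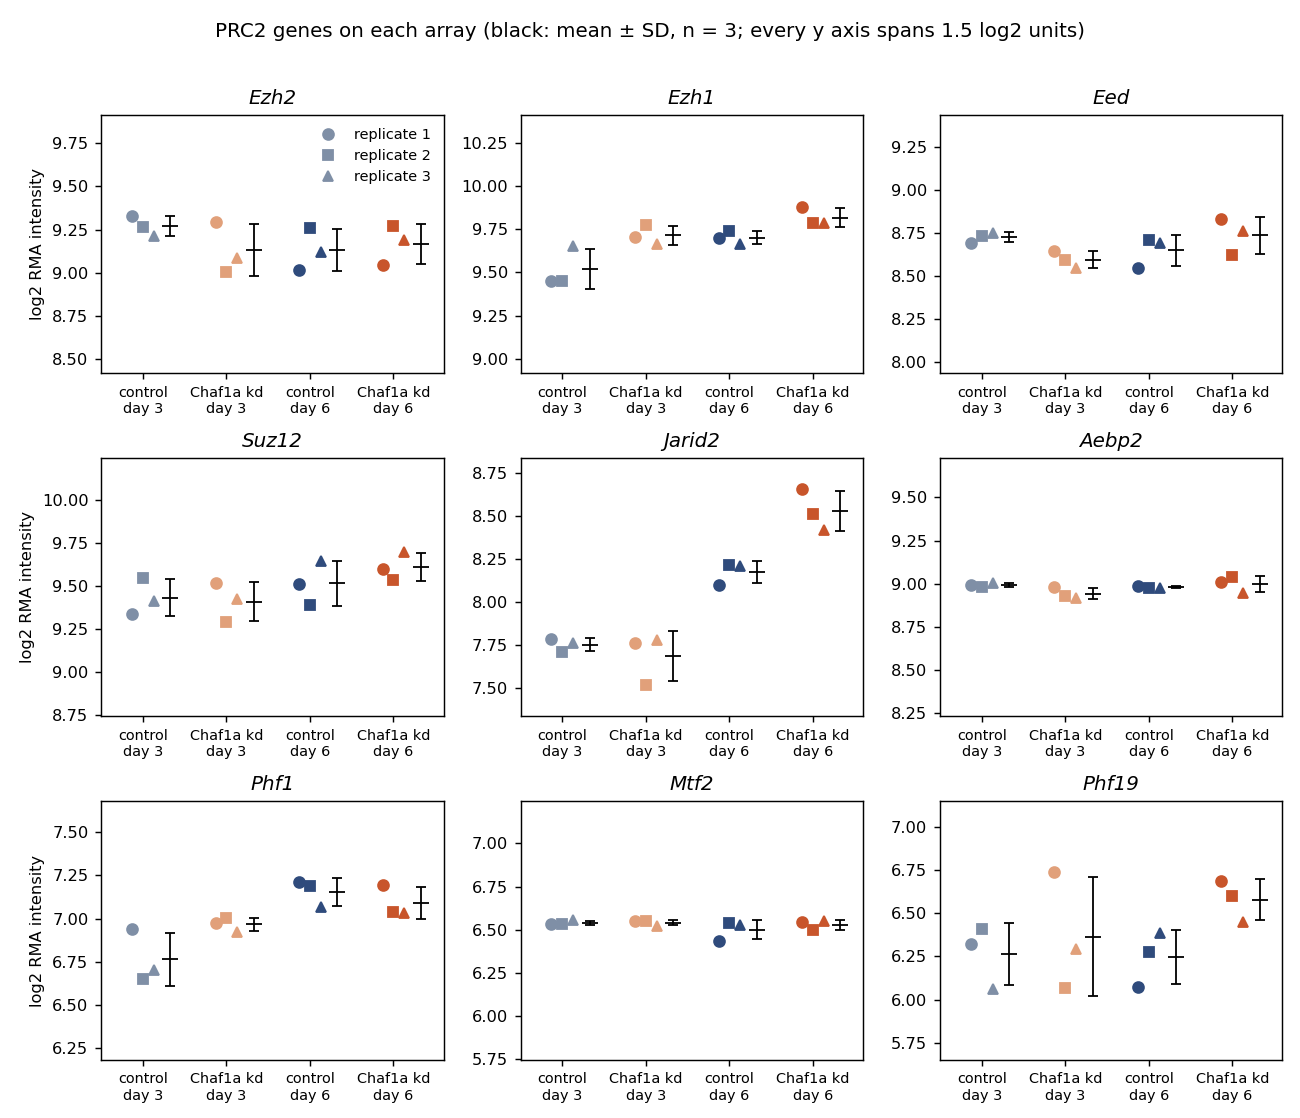
Log2 RMA intensity of the 9 genes on each of the 12 arrays, by group, with symbols for the replicate number and the mean ± SD of 3 arrays in black. Every axis spans the same log2 range. Jarid2 steps up from about 7.7 at day 3 to 8.17 in day 6 controls and 8.53 with the Chaf1a hairpin at day 6, while Mtf2 and Aebp2 stay within 0.12 log2 units.

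At day 6 Jarid2 lay higher in knockdown than in control cells, without passing the test over all genes. The means were 8.53 ± 0.12 (SD, n = 3) and 8.17 ± 0.06, which is 1.28-fold, with each knockdown array above each control array. The log2 fold change of 0.36 (SE 0.08) had a 95% interval of 0.18 to 0.53, an unadjusted p of 8.71e-04, the 45th smallest of 17860, and an adjusted p of 0.344 in limma. Within same-number pairs the knockdown array exceeded its control 3 of 3 times, by 0.55, 0.30 and 0.21. Leaving out arrays gave 0.26 (without replicate 1) to 0.43 (without replicate 3), none of them past the threshold, and over all alternatives the adjusted p ran from 0.309 to 1.00.

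At day 3 the 2 groups of Jarid2 values overlapped. The log2 fold change was −0.07 (95% interval −0.24 to 0.11, adjusted p = 0.948), and 0.02 without knockdown replicate 2. The difference between the day 6 and day 3 effects was 0.42 (SE 0.12), with an unadjusted p of 0.00311 and an adjusted p of 0.918, so it did not pass. Paired by replicate number, the rise from day 3 to day 6 was 0.31, 0.50 and 0.44 in control cells and 0.89, 0.99 and 0.64 in knockdown cells. Each knockdown pair thus rose by more than each control pair, and the difference was 0.34 without day 3 knockdown replicate 2.

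Phf1, a Polycomb-like subunit that reads methylated H3K36, was the other member past the test over time. It stood at 6.94, 6.65 and 6.70 in day 3 controls and at 7.21, 7.19 and 7.06 in day 6 controls, with no overlap. That is a 1.31-fold rise, or 0.39 on the log2 scale (SE 0.08, limma adjusted p = 0.00595). Without replicate 2 of every group it was 0.32 (adjusted p = 0.126), and without replicate 3 it was 0.41 (adjusted p = 0.0717). In knockdown cells Phf1 read 6.97, 7.002 and 6.92 at day 3 and 7.20, 7.04 and 7.03 at day 6, higher by 0.12 on the log2 scale without passing (SE 0.08, adjusted p = 0.349). The knockdown effect was 0.20 (95% interval 0.03 to 0.38, adjusted p = 0.765) at day 3 and −0.07 (−0.24 to 0.11, adjusted p = 0.999) at day 6. Its difference between days, −0.27 (SE 0.12, adjusted p = 0.972), did not pass, so the rises with the 2 hairpins are not shown to differ. Without day 3 knockdown replicate 2 the day 3 effect was 0.19 and the rise in knockdown cells 0.14, and without day 6 knockdown replicate 1 that rise was 0.07.

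**Figure D2:**
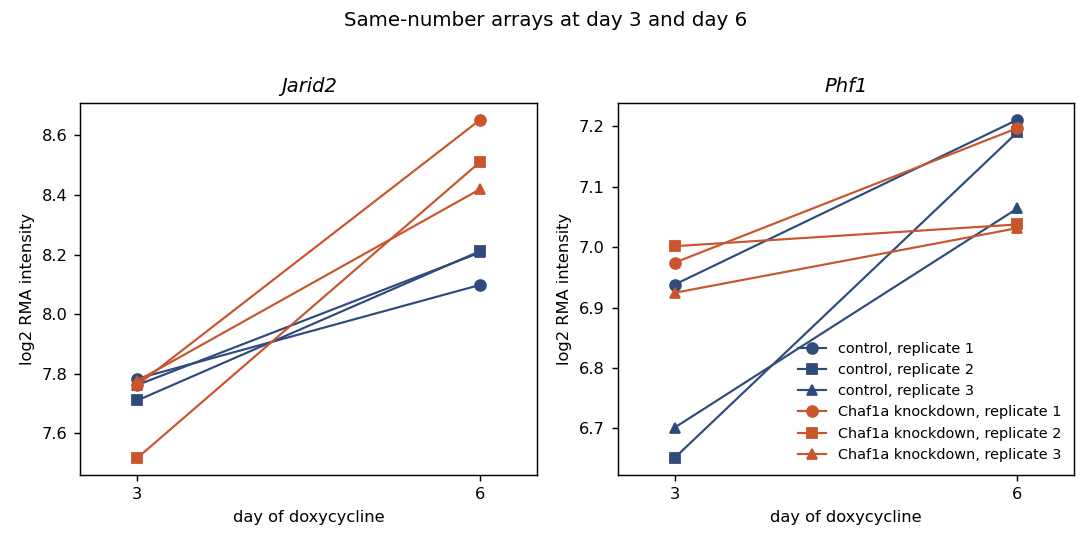
Log2 RMA intensity of Jarid2 and Phf1 at days 3 and 6, with a line joining arrays of the same hairpin and replicate number. All 3 knockdown lines for Jarid2 end above the 3 control lines, while for Phf1 each control line starts below the knockdown line of its number, by 0.04, 0.35 and 0.22, and both hairpins end between 7.03 and 7.21.

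The upstream sequences of these members and of the core gene Suz12 are shown because Jarid2 and Phf1 moved over time and Suz12 did not pass in the same comparisons. Each is the 250 bases before the outermost annotated start, 5′ to 3′ on the gene's strand, from RefSeq on GRCm38.p6, where all 9 members had a promoter entry. Capitals mark matches to GGGCGG (a GC box, which Sp and Klf factors can bind) or to the E2F letters TTTGGCGC, TTTCCCGC, TTTGCCGC and TTTCGCGC, on either strand.
Jarid2 (chr13:44730524-44730773, plus strand): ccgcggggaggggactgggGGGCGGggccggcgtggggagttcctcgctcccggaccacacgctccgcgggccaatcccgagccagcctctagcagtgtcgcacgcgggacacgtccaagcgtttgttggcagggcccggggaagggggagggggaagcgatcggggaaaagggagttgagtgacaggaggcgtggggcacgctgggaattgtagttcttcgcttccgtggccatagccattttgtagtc
Phf1 (chr17:26932877-26933126, plus strand): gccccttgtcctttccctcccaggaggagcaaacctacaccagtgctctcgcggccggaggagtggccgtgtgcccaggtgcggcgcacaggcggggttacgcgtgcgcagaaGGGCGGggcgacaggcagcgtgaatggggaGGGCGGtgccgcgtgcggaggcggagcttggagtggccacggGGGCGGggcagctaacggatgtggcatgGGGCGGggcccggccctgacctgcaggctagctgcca
Suz12 (chr11:79992856-79993105, plus strand): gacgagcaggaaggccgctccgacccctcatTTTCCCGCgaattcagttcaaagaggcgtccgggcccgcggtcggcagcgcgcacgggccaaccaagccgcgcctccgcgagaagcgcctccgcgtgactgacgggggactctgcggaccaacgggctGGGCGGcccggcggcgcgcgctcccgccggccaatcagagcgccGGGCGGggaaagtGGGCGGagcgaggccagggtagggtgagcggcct

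The window of Jarid2 held 1 GC box, that of Phf1 held 4, and that of Suz12 held 3 with 1 E2F match. A GC box stood in 32.7% of all 32851 promoter windows of this length. It stood in at least 1 window of 6 of the 9 members, which had 13 windows in all, so this count per gene is not on the scale of the share per window. The windows shown were 67.2% (Jarid2), 72.0% (Phf1) and 73.6% (Suz12) G or C, beside a median of 52.4% over all windows. An E2F match stood in 1.86% of all windows and, among members, in those of Phf19 and Suz12. CACGTG (the E-box of Myc), ATGCAAAT (the octamer of Oct4) and CATTGT (a Sox core), searched on both strands, stood in 6.02%, 1.60% and 10.7% of all windows and in none of the members'. The matches are letters in these windows only.

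None of the catalytic and core subunits passed the test in any of the 5 comparisons. Ezh2, the methyltransferase of dividing cells, read 9.33, 9.27 and 9.21 in day 3 controls, 9.30, 9.003 and 9.09 in day 3 knockdown, 9.01, 9.26 and 9.12 in day 6 controls and 9.04, 9.27 and 9.19 with the Chaf1a hairpin at day 6. All 4 groups overlapped. Its log2 fold change was −0.14 at day 3 and 0.04 at day 6 for the hairpin, and −0.14 in control and 0.04 in knockdown cells over time (SE 0.09 each, adjusted p from 0.345 to 0.999). The day 3 hairpin effect was −0.08 without knockdown replicate 2 and −0.22 without knockdown replicate 1, and the time change in controls was −0.08 without day 6 control replicate 1. With arrays left out, the day 6 hairpin effect went as low as −0.02 and the time change in knockdown cells as low as −0.08, the latter without replicate 2 of every group.

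Proliferation genes were set beside Ezh2. A list of 21 measured DNA replication and mitosis genes had scores of 0.19, 0.19 and 0.08 in the day 3 control group and 0.24, 0.03 and 0.05 with the Chaf1a hairpin. At day 6 the scores were −0.33, −0.06 and −0.17 in controls and −0.14, −0.02 and −0.07 in knockdown arrays. In both day 6 groups replicate 1 was lowest for the list and for Ezh2. Their part in the levels of Ezh2 was not tested. The genes nearest to Ezh2 over the 12 arrays included Slbp, which binds histone mRNA (Pearson's r = 0.909), and Cks2, a partner of cyclin-dependent kinases (r = 0.898). With group means removed r was 0.94 and 0.88. The other nearest genes were Slfn3 (r = 0.930), Hnrnpm (r = 0.903) and Cdkn2aipnl (r = 0.903), and these values only describe likeness over arrays that share replicates.

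Ezh1, the less active methyltransferase of resting cells, was lowest in day 3 controls. It read 9.45, 9.45 and 9.66 there, 9.71, 9.78 and 9.66 in day 3 knockdown, 9.70, 9.74 and 9.67 in day 6 controls and 9.88, 9.79 and 9.79 with the Chaf1a hairpin at day 6. The order of group means was day 3 control, day 6 control, day 3 knockdown and day 6 knockdown, where the middle groups overlapped and the outer ones stood apart from them. Over time its log2 fold change was 0.18 in controls (SE 0.07, adjusted p = 0.0889) and 0.10 in knockdown cells (SE 0.07, adjusted p = 0.340). The control value passed with renewed quantile normalisation (0.23, adjusted p = 0.0378), with an intensity trend and robust prior (0.18, 0.0430) and without day 3 control replicate 3 (0.25, 0.0291).

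The hairpin effect on Ezh1 was 0.20 at day 3 (95% interval 0.05 to 0.34, adjusted p = 0.726) and 0.12 at day 6 (−0.03 to 0.26, adjusted p = 0.999). In all same-number pairs of both days Ezh1 was higher with the Chaf1a hairpin, 3 of 3 each time, without overlap of the groups. The margin at day 3 was narrow, with 9.664 against 9.656 in the closest arrays, replicate 3 of each hairpin. The day 3 knockdown array with the highest Ezh1, replicate 2, was the array with high interferon-stimulated genes. Without it the day 3 effect was 0.16 (adjusted p = 0.871). Of the genes most like Ezh1 over the 12 arrays, Ifitm3 (r = 0.900) is an interferon-induced membrane protein and Psme1 (r = 0.907) an interferon-inducible proteasome activator subunit. The others were Slc8b1 (r = 0.936), Map4k1 (r = 0.900) and Agtrap (r = 0.888). In day 6 knockdown, the group with the highest mean Ezh1, the interferon list scored −0.13, 0.01 and −0.12. The part of interferon-stimulated genes in the Ezh1 levels was not tested.

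Eed, which binds the trimethyl mark and stimulates the enzyme, ran from 8.54 to 8.83 over the 12 arrays. At day 3 it read 8.69, 8.74 and 8.75 in controls and 8.64, 8.59 and 8.54 in knockdown arrays. Those groups did not overlap, and the hairpin effect was −0.13 on the log2 scale (SE 0.07, adjusted p = 0.859). At day 6 the groups overlapped, with 0.09 (SE 0.07, adjusted p = 0.999), and −0.01 without replicate 1. The difference between the effects, 0.22 (SE 0.10, adjusted p = 0.972), did not pass.

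Suz12, which holds the core together, ran from 9.29 to 9.70. Its hairpin effects were −0.02 at day 3 and 0.10 at day 6 (SE 0.09 each), with adjusted p = 0.990 and 0.999. Without day 3 knockdown replicate 2 the former was 0.04, and without day 6 control replicate 2 the latter was 0.03. Over time it stood at 0.08 in controls (adjusted p = 0.581; 0.15 without day 6 control replicate 2) and at 0.20 in knockdown cells (SE 0.09, adjusted p = 0.132), where the day 6 arrays lay above the day 3 arrays and the value was 0.14 without day 3 knockdown replicate 2. Among the alternatives, the knockdown value passed only with renewed quantile normalisation (0.24, adjusted p = 0.0480).

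**Figure D3:**
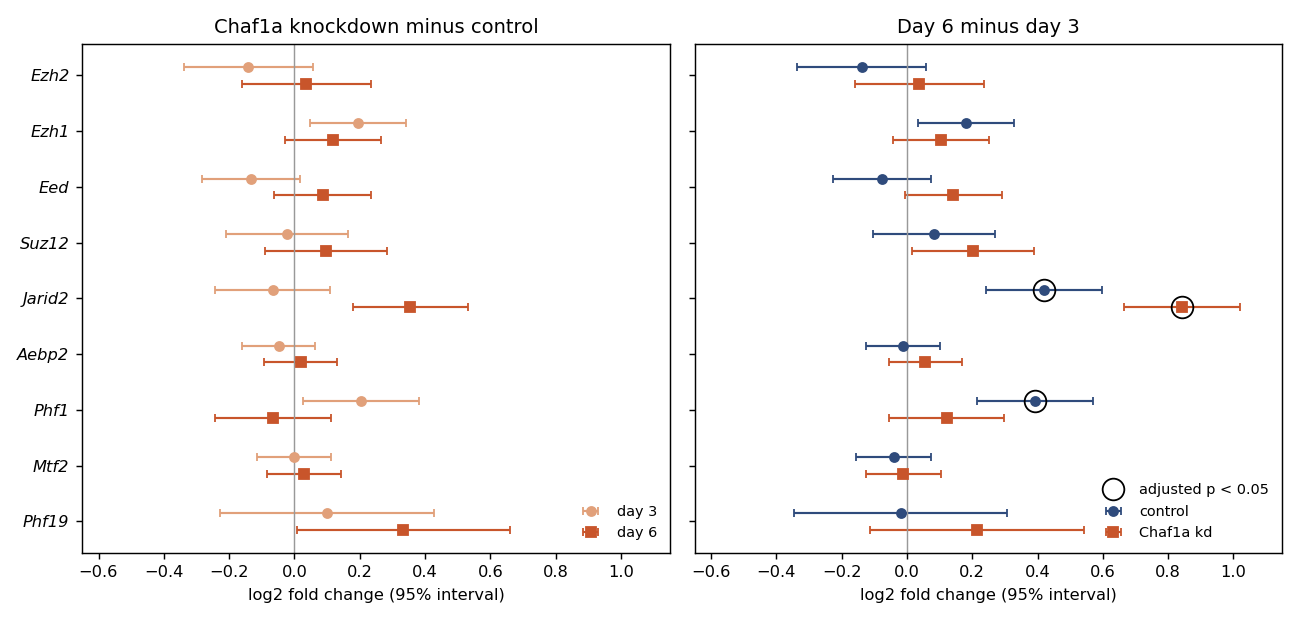
Log2 fold changes of the 9 genes with 95% intervals, for the hairpin at each day (left) and for day 6 against day 3 with each hairpin (right). Rings mark the values past the adjusted threshold, which are Jarid2 with both hairpins (0.42 and 0.84) and Phf1 in control cells (0.39).

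The remaining accessory subunits showed no change past the test. Aebp2, a zinc finger protein that joins the Jarid2 form of the complex, spanned 0.12 log2 units over the 12 arrays, from 8.92 to 9.04. Its log2 fold changes were −0.01 in controls and 0.06 in knockdown cells over time (SE 0.05 each). Renewed quantile normalisation turned the first of these to 0.05. Mtf2, the Polycomb-like subunit best known from embryonic stem cells, spanned 0.12 log2 units, from 6.44 to 6.55, and its fold changes lay between −0.04 and 0.03 in all 5 comparisons.

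Phf19, the third Polycomb-like subunit, varied most between replicates. It read 6.32, 6.41 and 6.06 in day 3 controls, 6.74, 6.06 and 6.29 in day 3 knockdown, 6.07, 6.28 and 6.39 in day 6 controls and 6.69, 6.60 and 6.45 with the Chaf1a hairpin at day 6. The day 6 knockdown arrays lay above the day 6 controls by 0.33 on the log2 scale (SE 0.15, 95% interval 0.01 to 0.66, adjusted p = 0.999). Without replicate 1 of every group that value was 0.20. At day 3 the effect was 0.10 (SE 0.15, adjusted p = 0.960), with −0.09 without knockdown replicate 1 and 0.25 without knockdown replicate 2.

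Counted together, 0 of the 9 members passed for the hairpin at day 3, where 0% of 17860 genes passed in limma. At an unadjusted p of 0.05, 2 members (Ezh1 and Phf1) were higher, as were 3.12% of genes, and 0 members were lower. At day 6 again 0 of 9 passed, against 0.0392% of genes, and 2 members (Jarid2 and Phf19) were higher at an unadjusted p of 0.05, as were 2.15% of genes. The day 6 groups did not overlap for 3 members, all higher (Jarid2, Ezh1 and Phf19), against 10.6% of genes in either direction. At day 3 they did not overlap for 1 member higher (Ezh1) and 2 lower (Eed and Aebp2), against 5.21% and 5.59% of genes. For Ezh1 and Aebp2 the margins were narrow. The closest Ezh1 arrays read 9.664 with the Chaf1a hairpin and 9.656 in controls, and the closest Aebp2 arrays both read 8.978. The median log2 fold change of the members was −0.02 at day 3 and 0.09 at day 6, beside −0.01 over all genes on both days. For the difference between the hairpin effects 0 of 9 members and 0% of genes passed, with 3 members (Jarid2, Eed and Phf1) and 5.10% of genes at an unadjusted p of 0.05. These comparisons share arrays with the time comparisons and are not independent of them.

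Over time 2 of 9 members rose and 0 fell in control cells, against 6.99% of genes higher and 10.6% lower, 17.6% in all. In knockdown cells 1 rose and 0 fell, against 7.46% higher and 10.5% lower, 17.9% in all. All day 6 arrays lay above all day 3 arrays for 3 members in controls (Jarid2, Ezh1 and Phf1) and for 4 in knockdown cells (Jarid2, Ezh1, Suz12 and Phf1), against 16.0% and 15.4% of genes. The members' medians were −0.01 in controls and 0.12 in knockdown cells, beside 0.01 over all genes in each.

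Of 8 PRC2-associated and H3K27 demethylase genes, 2 passed over time with each hairpin, beside 17.6% of all genes in controls and 17.9% in knockdown cells. The list held the histone-binding PRC2 subunits Rbbp4 and Rbbp7 and the associated proteins Epop, Ezhip, Lcor and Lcorl. It also held the demethylases Kdm6a and Kdm6b, which remove the mark. In controls 1 rose, 1 fell and 6 did not pass. Kdm6b rose by a log2 fold change of 0.22 (adjusted p = 0.0362), and Lcor, a nuclear receptor corepressor whose locus also encodes a PRC2 accessory protein in human cells, fell by 0.33 on the log2 scale (adjusted p = 0.0220). In knockdown cells 2 rose and 0 fell. These were Epop, an accessory subunit of embryonic stem cells (0.30, adjusted p = 0.0390), and Rbbp4 (0.27, adjusted p = 0.0320), and 0 of 8 passed there without day 3 knockdown replicate 2, where 14.3% of all genes did. In controls they stood at 0.23 (adjusted p = 0.108) and 0.18 (adjusted p = 0.150), and whether the hairpins differed did not pass (adjusted p = 0.991 each). For the hairpin itself 0 of 8 passed on either day, with Rbbp7 at −0.03 and 0.02 and Rbbp4 at −0.06 and 0.03.

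PRC1, the complex that binds the PRC2 mark and ubiquitinates histone H2A, had members that moved either way over time. Of 26 listed genes 22 were measured. In controls 4 rose, 3 fell and 15 did not pass, beside 6.99% of all genes higher and 10.6% lower. Pcgf5, which defines a variant PRC1, rose by 0.80 (SE 0.08, adjusted p = 5.77e-05) from 8.28 ± 0.02 (SD, n = 3) to 9.08 ± 0.15, and Cbx2, a chromodomain reader of the mark, by 0.31 (adjusted p = 0.0117). Yaf2, which links Ring1 proteins to partners, fell by 0.29, and Pcgf3, another variant subunit, fell by 0.26, on the log2 scale (adjusted p = 0.00860 and 0.00915). In knockdown cells 4 again rose and 3 fell, beside 7.46% of all genes higher and 10.5% lower. Pcgf5 rose by 0.90 (adjusted p = 2.21e-05), Cbx2 by 0.45 (adjusted p = 0.00123) and Cbx7, a second chromodomain reader, by 0.37 (adjusted p = 0.00326), while Yaf2 fell by 0.34 (adjusted p = 0.00312). The median of the list was 0.00 in controls and 0.11 in knockdown cells. For the hairpin 0 of 22 passed on either day, with Rnf2, an E3 ligase of the complex, at −0.06 and 0.02 and Pcgf3 at 0.01 and −0.01.

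**Figure D4:**
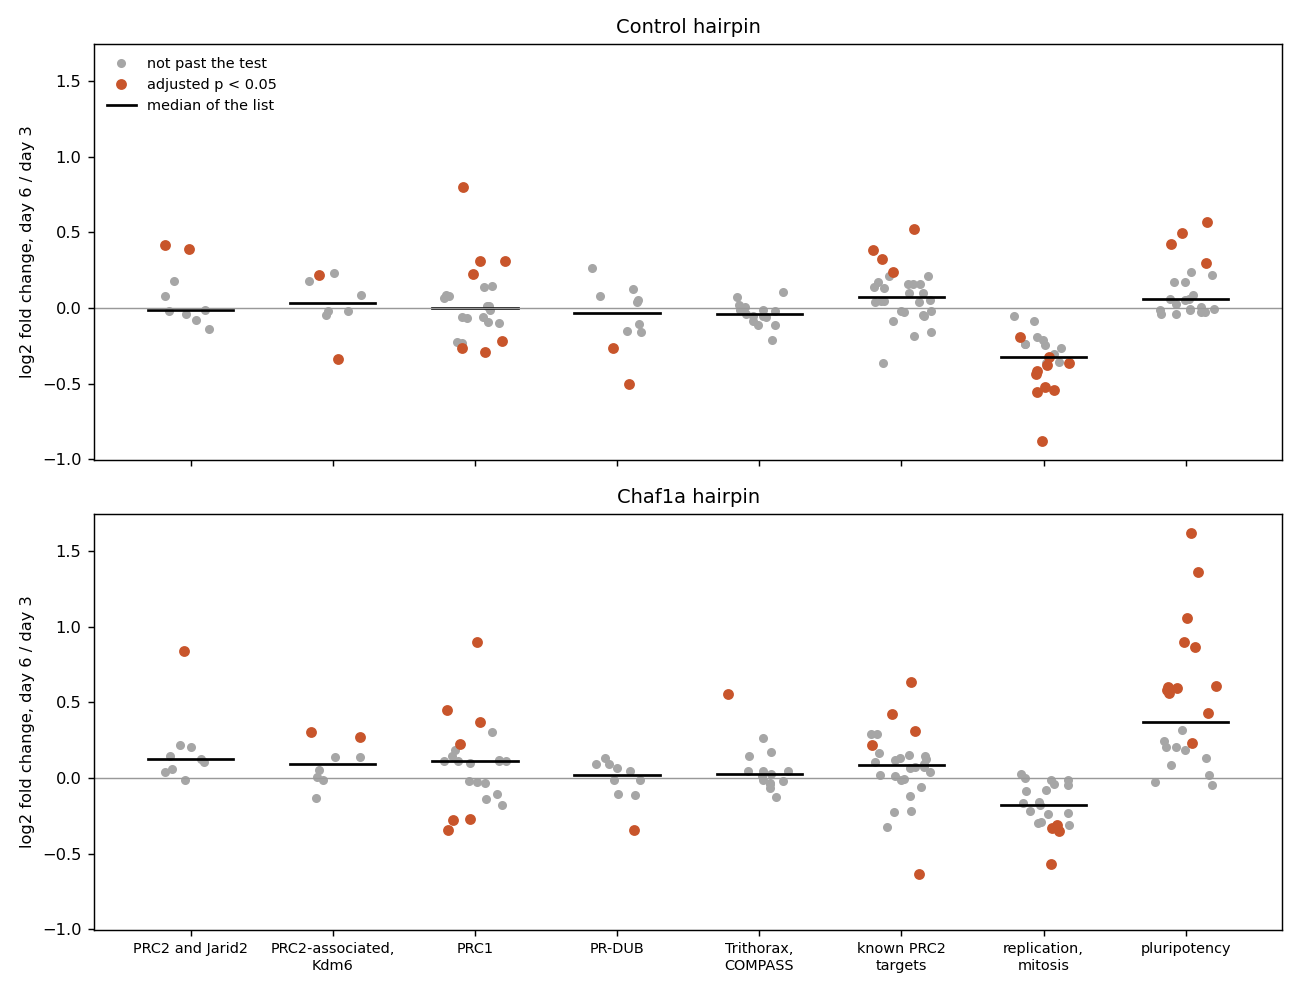
Log2 fold change of day 6 against day 3 for each measured gene of 8 lists, in control cells (top) and Chaf1a knockdown cells (bottom). Coloured points passed at an adjusted p of 0.05 and black lines are list medians, which lie at −0.32 and −0.18 for replication and mitosis and at 0.06 and 0.37 for pluripotency genes.

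The opposing systems had 0 to 2 genes past the test over time, read against the same 17.6% and 17.9% of all genes. Of 10 measured genes of PR-DUB, the deubiquitinase that reverses the PRC1 mark, 2 fell in controls. They were Asxl3, a cofactor of Bap1 (−0.50, adjusted p = 0.00296), and Foxk2, a forkhead protein (−0.27, adjusted p = 0.0161). In knockdown cells 1 fell, Asxl3 (−0.34, adjusted p = 0.0227), and 0 without day 3 knockdown replicate 2, with Ogt at −0.01 and Hcfc1 at 0.09 not past the test. Of 15 measured Trithorax and COMPASS genes, which methylate histone H3K4, 0 passed in controls, where Wdr82 stood at −0.02 and Men1 at −0.01, and 1 at an unadjusted p of 0.05. In knockdown cells Kmt2c, one of the methyltransferases, rose by 0.56 (adjusted p = 4.91e-04), from a day 3 knockdown level that lay lower than control by 0.41 on the log2 scale without passing (adjusted p = 0.545). For the hairpin 0 genes of either list passed on either day, with Ogt at 0.25 and −0.03, Hcfc1 at −0.17 and 0.08, Wdr82 at −0.01 and 0.06, and Men1 at 0.03 and 0.05.

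Known PRC2 targets passed over time, in either direction, in a share near that of all genes. They were 4 of 28 in controls beside 17.6% and 5 of 28 in knockdown cells beside 17.9%. By direction the shares were less alike, as more targets rose and fewer fell. Of 28 measured developmental regulators, 4 rose and 0 fell in controls, beside 6.99% of all genes higher and 10.6% lower, with a median of 0.08. The cell cycle inhibitors Cdkn2a and Cdkn2b rose by 0.53 and 0.39 (adjusted p = 0.00105 and 0.00181), and the neural factors Neurog2 and Olig2 by 0.24 and 0.33 (adjusted p = 0.0242 and 0.0316), Olig2 at a mean level of 4.48 near the low-value cut. In knockdown cells 4 rose and 1 fell, beside 7.46% of all genes higher and 10.5% lower. Cdkn2a rose by 0.63, Pax7, a muscle and neural crest factor, by 0.42, and Cdkn2b by 0.31, while Gata6, an endoderm factor, fell by 0.64 on the log2 scale (adjusted p = 2.83e-04, 0.00560, 0.00621 and 0.0175). Gata6 in controls stood at −0.36 (adjusted p = 0.157), and without day 3 knockdown replicate 2 the targets past the test in knockdown cells were 4 higher and 0 lower. For the hairpin 0 of 28 passed on either day, with Cdkn2a at −0.09 and 0.02 and Cdkn2b at 0.01 and −0.07, and medians of −0.03 and −0.04.

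Over the same days some proliferation genes fell and some pluripotency genes rose. Of 21 replication and mitosis genes, 10 fell in controls and 4 in knockdown cells, beside 10.6% and 10.5% of all genes. In either, 0 of the 21 rose. Without day 3 knockdown replicate 2 the count in knockdown cells was 2. Rrm2, a ribonucleotide reductase subunit, fell by 0.88 and by 0.57 on the log2 scale (adjusted p = 6.63e-05 and 0.00112). In controls Plk1 fell by 0.56, Mcm4 by 0.54 and Cdk1 by 0.41 on the log2 scale, and in knockdown cells Cdk1 fell by 0.31, Bub1 by 0.35 and Plk1 by 0.33. Of 22 pluripotency genes, 4 rose in controls and 12 in knockdown cells (11 without that array), beside 6.99% and 7.46% of all genes. In either, 0 of the 22 fell. Trim71, an RNA-binding stem cell protein, rose by 0.42 and 0.58, and Sall4, a stem cell transcription factor, by 0.87 in knockdown cells. For the hairpin 0 of 21 proliferation genes passed on either day, with Rrm1 at −0.06 and −0.04 and Mki67 at −0.05 and 0.14. Of the 22 pluripotency genes 3 rose with the hairpin at day 6, where 0.0392% of all genes passed. These were Nanog by 0.63, Sall4 by 0.78 (limma adjusted p = 0.00261 and 0.00589) and Tdgf1 (adjusted p = 0.0130). On day 3, 0 of the 22 and 0% of all genes passed, with L1td1 at −0.15 and Fgf4 at 0.04. Tdgf1 reached the low-value cut on 3 arrays only, those of day 6 knockdown at 5.47 to 6.62, so it entered the test through its high group, and no fold is given against day 6 controls at 3.99 to 4.16, below the cut.

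The genes whose levels were most like those of Jarid2 over the 12 arrays were Hook1, Cdh1, Tfap2a, Bmp6 and Slc2a1. Pearson's r was 0.989, 0.977, 0.971, 0.971 and 0.970, as a description over arrays in 4 groups that share replicates. With the group means removed it was 0.86, 0.58, 0.45, 0.75 and 0.59. Cdh1, which encodes E-cadherin, read 7.50, 7.71 and 7.79 in day 6 controls and 8.89, 8.52 and 8.61 with the Chaf1a hairpin at day 6, and like Jarid2 it was highest in knockdown replicate 1. It was the only one of the 5 past the test for the hairpin at day 6 (log2 fold change 1.00, adjusted p = 0.0130). Hook1, a microtubule-linking protein, lay at a mean of 4.44, near the low-value cut. It reached the cut on 6 arrays only, those of day 6, where Jarid2 was higher. Hook1 thus entered the test through its high groups. All its day 3 values lay below the cut, so its r with Jarid2 rests in part on values near background. Of 6 epithelial markers 1 rose with the hairpin at day 6, Cdh1, where 0.0392% of all genes passed. Over time 2 of the 6 rose in controls and 5 in knockdown cells, beside 6.99% and 7.46% of all genes. The mean log2 level of the list ran from 6.44 to 6.49 in day 6 controls and from 6.91 to 6.99 with the Chaf1a hairpin at day 6, and from 5.99 to 6.26 over the day 3 arrays. All 6 markers passed the low-value cut on 12 arrays. Their part in the Jarid2 changes was not tested.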

How the data were processed

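Expression was measured on 12 Affymetrix mouse arrays. The deposited values are signal intensities from RMA. Per the submitters' processing notes, the authors ran Affymetrix Expression Console 1.3.0.187. The deposited intensities ran from 4.71 to 13421, a linear scale, so the log2 of each was taken. Genome build and array annotation were not given in the sources used here. Of 41345 probe sets, 23521 named 1 gene, and the brightest stood for each gene. Genes at or above the array's own 30th percentile (log2 4.30 to 4.38) in at least 3 arrays were kept, which left 17860. The number of arrays limits the precision.

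Limma 3.58.1 in R 4.3.3 fitted a mean per group over the 12 arrays with 8 residual degrees of freedom (4.37 prior). Tests were two-sided, and p-values were adjusted by Benjamini-Hochberg over all kept genes, with a threshold of 0.05. SE is the standard error of a log2 fold change, and intervals are 95%. List scores average log2 values centred per gene. The fit was tested on simulated data for the day 6 hairpin comparison over 17860 genes. It called 73 of 100 genes changed by 0.5 and 98 of 100 changed by 1 on the log2 scale, and 8 of 17660 unchanged genes. The simulated noise was independent between arrays, and more genes were changed than the 7 called in the real comparison. These shares therefore need not hold for the real comparison. Tables used Python 3.11.15 with pandas 2.3.3 and plots matplotlib 3.10.9. The members and lists were chosen with earlier results of these data known. All members were named. For each list and comparison the genes picked were up to 4 past the threshold by smallest p, or the 2 brightest as well if 1 or 0 passed. Not all picks are printed, and some genes given, such as Col1a1, Thy1 and Ptprc, fall outside this rule. Keratinocyte and skeletal muscle markers were also tested. Of these only Itgb4 passed, in knockdown cells over time (log2 fold change 0.45, limma adjusted p = 0.0279). It did not pass without day 3 knockdown replicate 2. The 5 genes most like Jarid2, Ezh1 and Ezh2 exclude predicted and RNA gene names. The interferon list was chosen after the data were seen. Groups share replicate numbers. With group means removed, all 12 same-number pairs of compared groups correlated, with r from 0.14 to 0.37, so the numbers were taken to pair the samples. Same-number pairs of groups not compared here had r from 0.0006 to 0.20, the lowest for day 3 control and day 6 knockdown replicate 1. The basis for the pairing is thus weak in places. The main fit did not use this pairing, so its SEs, intervals and p-values are unpaired. A fit with a term for the replicate number is among the alternatives.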

Additional observations from a re-analysis of the deposited data

How the results depend on the processing

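Alternatives were no low-value filter, the replicate block, array weights, renewed quantile normalisation, the mean of probe sets, only the groups compared, an intensity trend with robust prior, and arrays left out singly or by replicate number. The replicate block (a fixed term for the number) changed no call among the members: Jarid2 kept limma adjusted p = 0.00491 in controls and 6.02e-05 in knockdown cells over time. Over all genes it moved the count for the hairpin at day 6 from 7 to 6. Over time the counts went from 3140 to 3367 in controls and from 3200 to 3509 in knockdown cells. With arrays left out, members past the threshold over time numbered 0 to 3 in controls, with 0 without replicate 2 and without replicate 3, and 1 in knockdown cells throughout. Renewed quantile normalisation gave 2 in knockdown cells (Jarid2 and Suz12). For the hairpin and its difference between days the count was 0 in every alternative. List counts without day 3 knockdown replicate 2 were added after the data were seen.

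Some small values changed sign. Over time in controls, Aebp2 went to 0.05 with renewed quantile normalisation and Phf19 to 0.11 with array weights. With arrays left out, the hairpin effect at day 3 ranged from −0.11 to 0.02 for Jarid2, −0.0086 to 0.01 for Mtf2, −0.09 to 0.32 for Phf19 and −0.12 to 0.09 for Suz12. At day 6 it ranged from −0.0024 to 0.05 for Aebp2, −0.01 to 0.17 for Eed, −0.02 to 0.10 for Ezh2 and −0.009 to 0.07 for Mtf2. Its difference between days ranged from −0.17 to 0.02 for Ezh1, −0.0016 to 0.07 for Mtf2 and −0.02 to 0.22 for Suz12. Over time it ranged from −0.19 to 0.10 for Phf19 in controls, and in knockdown cells from −0.08 to 0.18 for Ezh2 and −0.03 to 0.01 for Mtf2. The cause was not tested. Fits without a replicate number hold 2 arrays a group, so fewer calls follow from fewer samples. Tdgf1, Olig2 and Hook1 lie near or below the low-value cut on some arrays, where signal over background limits them.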
